A study of Mus musculus with 38 samples.

Results

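The genes described here make phosphatidylcholine and phosphatidylethanolamine in mouse liver, or release and use the choline that these lipids need. They were chosen by name, as the rows of the expected count table whose gene symbol was Gpcpd1, Chka, Etnk2, Pcyt1a, Pcyt2, Chpt1, Cept1, Pemt, Lpcat3 or Chdh. All 10 were found among the 21954 genes of the table, each under 1 gene identifier, and all 10 were among the 13786 genes that passed the filter on low counts.

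Phosphatidylcholine is the main phospholipid of cell membranes, of lipid droplet surfaces, of lipoproteins and of bile. Liver makes it by the CDP-choline pathway, in which choline is phosphorylated, activated to CDP-choline and joined to diacylglycerol. Liver also makes it by methylation of phosphatidylethanolamine, which itself comes in part from the parallel CDP-ethanolamine pathway. Choline reaches these pathways from food or from phospholipid breakdown, and it can instead be oxidised to betaine, a methyl donor.

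Polyadenylated RNA was sequenced from livers of female, wild-type C57BL/6 mice in 38 libraries. The ad libitum (AL) groups, from mice that eat freely, were AL_0h (3 libraries, labelled ages 5 to 7 months), AL_6h (2, 11 to 12 months), AL_14h (3, 20 to 22 months) and AL_22h (3, 29 to 31 months). The calorie-restricted (CR) groups, from mice that receive less food, were CR_0h (2, 8 to 9 months), CR_6h (3, 14 to 16 months), CR_14h (3, 23 to 25 months) and CR_22h (4, 32 to 35 months). The fasted groups held 3 libraries each, F_6h (17 to 19 months), F_14h (26 to 28 months) and F_22h (36 to 38 months). Zeitgeber time 18 was sampled in CR mice that were fed (CR_fed, 3 libraries, 39 to 41 months) and in CR mice that missed the meal (CR_missed, 3 libraries, 42 to 44 months). Labelled age rises by sample order and no groups share one. Taken as labelled, diet and time cannot be told apart from age. The labels give neither the event from which the hours count nor the degree of restriction, and they do not say that replicates were separate animals. P-values therefore measure the spread between these samples.

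Totals ran from 17131292 to 30152277 expected counts per library, and the lowest count of a member in any library was 163, for Chka. Levels are given in CPM, counts scaled to the TMM-adjusted library size. Of the 8 hepatocyte markers looked for, 7 were in the table, and they summed to between 69400 and 165000 CPM in every library. In bulk tissue, fewer cells of a type and less RNA per cell cannot be told apart. Some libraries went against their labels. The clock genes of AL_0h replicate 2 and AL_22h replicate 2 correlated negatively with every other library of their group (highest r -0.444 and -0.947). For AL_0h replicate 3, AL_14h replicate 3, CR_14h replicate 3 and CR_22h replicate 3 the nearest library was one of another diet. Called changes of members that rest on these 6 libraries are given with and without them.

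Per transcript length, Pemt was the most abundant member, with a median over the libraries of 578 on the rescaled TPM scale. Pcyt2 followed at 393.3 and Etnk2 at 206.5 rescaled TPM. Chpt1 had a median of 109.6, and the other 6 lay between 66.2 (Lpcat3) and 24.2 (Chka) rescaled TPM. Gpcpd1 and Chka had far wider ranges of group means than the others. The highest group mean was 19 times the lowest for Gpcpd1, 9.19 times for Chka, 2.71 times for Pemt and 2.57 times for Chpt1, and between 1.72 and 2.11 times for the other 6.

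**Figure D1:**
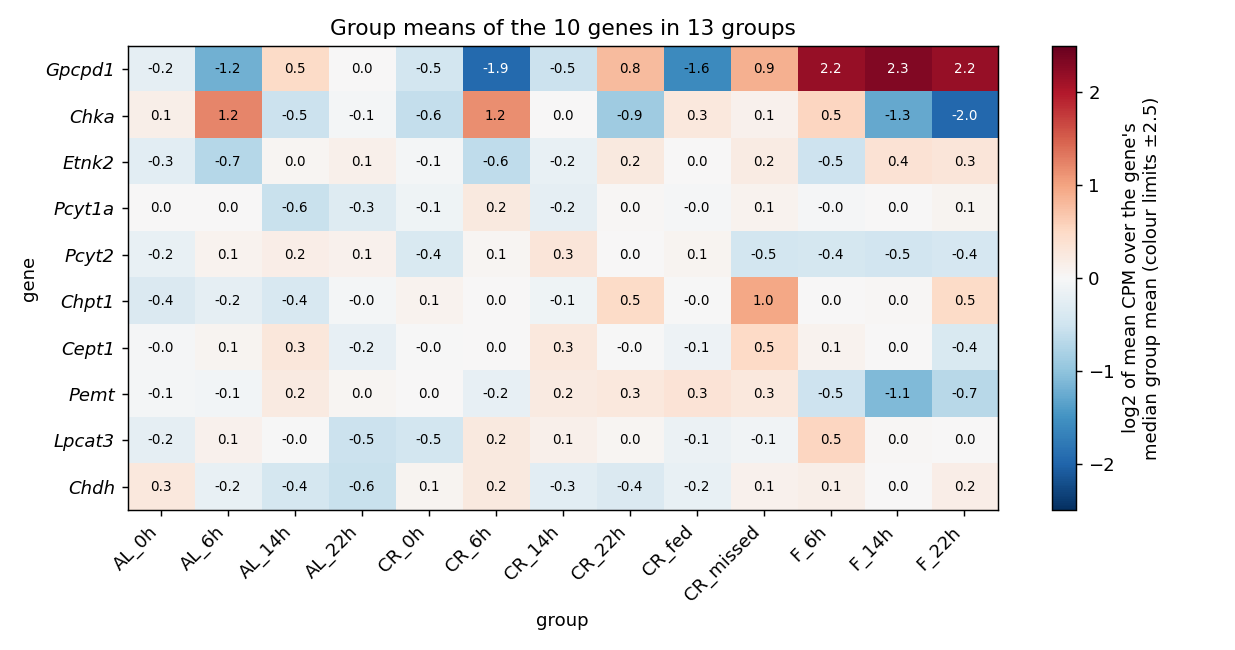
Group means of the 10 members (rows) in the 13 groups (columns), as log2 of the mean CPM over the median of the gene's 13 group means. Gpcpd1 was high in the 3 fasted groups and low in CR_6h and CR_fed, Chka was high in AL_6h and CR_6h and low in F_22h, and Pemt was low in the fasted groups.

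Gpcpd1 encodes the phosphodiesterase that splits glycerophosphocholine, a breakdown product of phosphatidylcholine, into choline and glycerol-3-phosphate. The gene lies on chromosome 2 (GRCm38, chr2:132529082-132587729, minus strand). It was the member with the largest change in fasted livers. At 6 h the fasted libraries held 344, 349 and 333 CPM, against 19.2 and 46.5 CPM in the AL libraries. At 14 h the fasted libraries held 679.6, 247 and 203 CPM and the AL libraries 69.4, 119 and 130.1 CPM. At 22 h the values were 474, 206 and 346 CPM in fasted and 79.3, 52.6 and 95.6 CPM in AL livers. No fasted library overlapped an AL library at any of these times. Each fasted library also lay above every library of the other diets except CR_22h replicate 4, which held 226 CPM against 206 in F_22h replicate 2 and 203 in F_14h replicate 3.

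The fold change of Gpcpd1 between fasted and AL livers was 3.38 ± 0.66 on the log2 scale (SE) at 6 h, 10.4-fold, with an adjusted p of 0.0035 in edgeR's quasi-likelihood test after Benjamini-Hochberg adjustment over all tested genes. It was 1.83 ± 0.52 at 14 h (edgeR adjusted p = 0.0114) and 2.17 ± 0.53 at 22 h (edgeR adjusted p = 0.00769). These 3 changes were not shown to differ over time (edgeR interaction, adjusted p = 0.693). At 6 h the call was lost without AL_6h replicate 1 (2.89 ± 0.85, edgeR adjusted p = 0.143), and at 14 h without AL_14h replicate 1 (1.61 ± 0.60, edgeR adjusted p = 0.0622) or without F_14h replicate 1 (1.08 ± 0.52, edgeR adjusted p = 0.156). At 22 h it was lost without F_22h replicate 1 (1.86 ± 0.56, edgeR adjusted p = 0.0526). Without the 6 libraries that went against their labels, the changes were 3.39 ± 0.60, 2.01 ± 0.55 and 1.98 ± 0.55, all past the threshold. The 6 h groups held none of the 6, so that fit does not check the 6 h change.

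In CR livers Gpcpd1 was lowest at 6 h and highest at 22 h. The CR_6h libraries held 14.5, 29.4 and 15.6 CPM and the CR_14h libraries 57.8, 26.3 and 71.7 CPM. At 0 h there were 57.8 and 52.0 CPM, and at 22 h 72.5, 62.1, 163 and 226 CPM. The 4 times of CR differed (edgeR adjusted p = 0.00204), a call kept in each of the 12 fits that left out 1 library. Against fasted livers of the same hour, Gpcpd1 was 17.3-fold lower in CR livers at 6 h (-4.11 ± 0.58, edgeR adjusted p = 5.01e-05) and 7.24-fold lower at 14 h (-2.86 ± 0.54, edgeR adjusted p = 0.000596). At 22 h the difference was -1.38 ± 0.47 and missed the threshold (edgeR adjusted p = 0.0582). In some other fits it passed, with DESeq2 (-1.39, DESeq2 adjusted p = 0.0495) and with limma (-1.48 ± 0.46, limma adjusted p = 0.0353, at a pseudocount of 1). It passed with -1.79 ± 0.50 without CR_22h replicate 4 (edgeR adjusted p = 0.0196). It also passed with -1.38 ± 0.42 once the libraries with a deviant clock were left out (edgeR adjusted p = 0.0345). Those are AL libraries outside this comparison, so the libraries compared stayed the same. Fasted and AL livers were compared with the same fasted libraries as fasted and CR livers, so these values are not independent.

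A missed meal raised Gpcpd1 within CR. The CR_missed libraries held 155, 101 and 166 CPM and the CR_fed libraries 25.0, 30.4 and 20.2 CPM. The lowest library after a missed meal was thus above the highest fed library. The change was 2.48 ± 0.54, 5.58-fold (edgeR adjusted p = 0.00273), and it held in all 6 fits that left out 1 library (2.34 to 2.67). The fasting effect at 22 h minus that of the missed meal was -0.31 ± 0.72 (edgeR adjusted p = 0.877), with a 95% interval from -1.72 to 1.10.

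**Figure D2:**
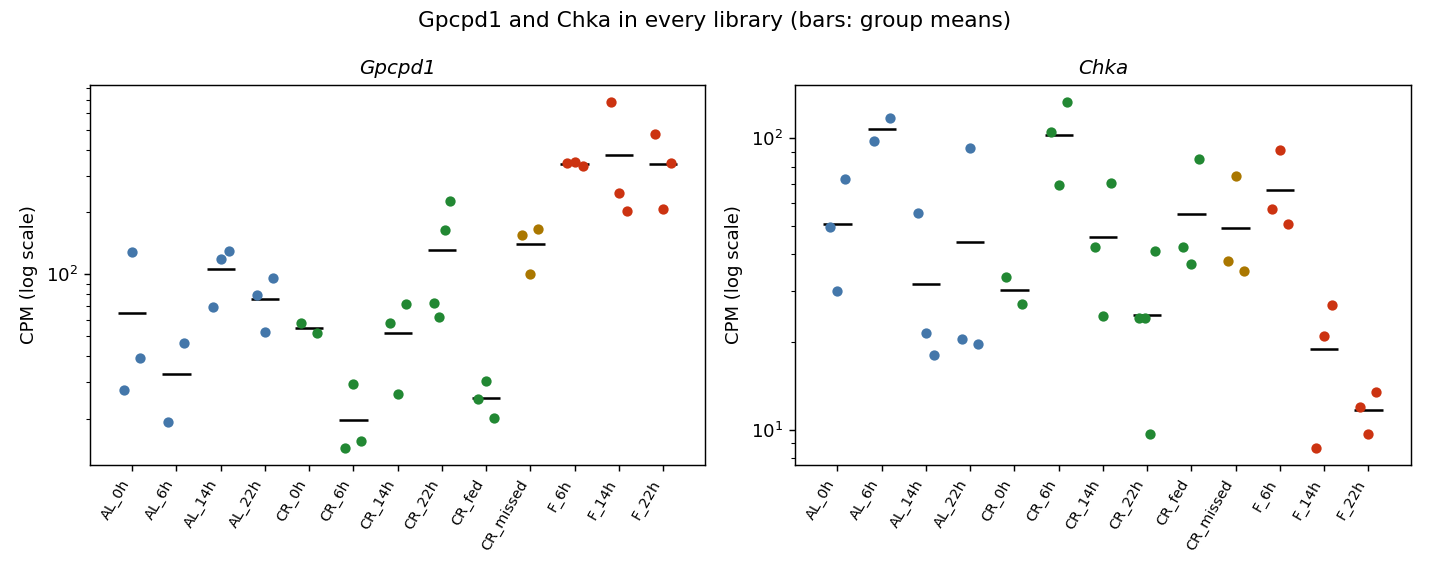
Gpcpd1 (left) and Chka (right) in CPM on a log axis, with 1 point per library, a bar at the mean of each of the 13 groups and colours for AL (blue), CR (green), missed meal (brown) and fasted (red). The fasted libraries of Gpcpd1 lie between 203 and 679.6 CPM, and the fasted libraries of Chka fall from 51.1 to 91.0 CPM at 6 h to between 9.68 and 13.5 CPM at 22 h.

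Chka encodes choline kinase alpha, which phosphorylates choline in the first step of the CDP-choline pathway (chr19:3851773-3894369, plus strand). Its level differed between the hours in the CR and in the fasted groups. In fasted livers it was 57.4, 91.0 and 51.1 CPM at 6 h, 8.70, 21.0 and 26.9 CPM at 14 h and 12.0, 9.68 and 13.5 CPM at 22 h. In CR livers it was 33.5 and 27.1 CPM at 0 h, 105, 69.4 and 133 CPM at 6 h, 42.6, 24.7 and 70.6 CPM at 14 h and 24.3, 24.2, 9.67 and 41.1 CPM at 22 h. The 6 h libraries of fasted livers lay above all later fasted libraries, while in CR livers 6 h and 14 h overlapped. The difference among the times was called within fasted livers (edgeR adjusted p = 0.0131) and within CR livers (edgeR adjusted p = 0.0132). The fasted call was lost without F_6h replicate 2 (edgeR adjusted p = 0.0926) and the CR call without CR_6h replicate 3 (edgeR adjusted p = 0.0592).

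In AL livers Chka was 49.8, 30.0 and 72.4 CPM at 0 h, 98.2 and 117 CPM at 6 h, 55.4, 21.6 and 18.2 CPM at 14 h and 20.5, 92.7 and 19.7 CPM at 22 h. The 92.7 CPM belongs to AL_22h replicate 2, whose clock genes went against its group. Time within AL was not called (edgeR adjusted p = 0.392), and it was called without the libraries of a deviant clock (edgeR adjusted p = 0.0285). At 22 h Chka fell in fasted against AL livers by 1.92 on the log2 scale (SE 0.56, edgeR adjusted p = 0.0233). This change rested on AL_22h replicate 2: without that library it was -0.77 ± 0.52 (edgeR adjusted p = 0.364). It was also lost without F_22h replicate 1 (-1.93 ± 0.66, edgeR adjusted p = 0.0846) or without F_22h replicate 2 (-1.80 ± 0.65, edgeR adjusted p = 0.0919). Between CR and fasted livers at 22 h, Chka was higher in CR by 1.08 ± 0.52 (edgeR adjusted p = 0.195). Without the 6 libraries that went against their labels, this difference was 1.35.

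The promoter of Chka is shown because it is the member with the widest range of levels for which a promoter window was given. It is the 250 bases before the RefSeq start on GRCm38.p6, chr19:3851523-3851772, plus strand, 5′ to 3′. Capitals mark 2 CCAAT boxes (CCAAT) and 2 GC boxes (GGGCGG), each on either strand.
Chka: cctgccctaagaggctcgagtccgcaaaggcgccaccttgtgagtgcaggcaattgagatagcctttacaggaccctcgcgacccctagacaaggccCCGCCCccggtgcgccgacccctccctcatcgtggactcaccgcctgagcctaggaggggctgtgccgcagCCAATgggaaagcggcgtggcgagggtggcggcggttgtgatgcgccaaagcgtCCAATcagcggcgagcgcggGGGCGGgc

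Etnk2 encodes ethanolamine kinase 2, which starts the CDP-ethanolamine pathway (chr1:133363572-133380336, plus strand). The CR_6h libraries held 224, 191 and 187 CPM, and the CR_22h libraries 359, 420.2, 350 and 347 CPM. Every CR_22h library was above every CR_6h library, and the 4 times of CR differed (edgeR adjusted p = 0.0314). That call was kept in 7 of 12 fits that left out 1 library, and lost without any 1 of the CR_6h libraries, CR_22h replicate 1 or CR_22h replicate 2 (edgeR adjusted p of 0.0505 to 0.0941). Within fasted livers, Etnk2 went from 240, 243 and 178 CPM at 6 h to 559, 349 and 299 CPM at 14 h and 320.2, 329.5 and 506 CPM at 22 h (edgeR adjusted p = 0.0548). This difference over time missed the threshold here and passed in some other fits. It passed with DESeq2 (DESeq2 adjusted p = 0.0134) and limma (limma adjusted p = 0.0468 at a pseudocount of 1). With the trend with transcript length removed it also passed (edgeR adjusted p = 0.0291), as it did without the libraries of a deviant clock (edgeR adjusted p = 0.0407).

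Pcyt2 and Pcyt1a encode the cytidylyl transferases that form CDP-ethanolamine and CDP-choline, the regulated steps of the 2 pathways. Pcyt2 (chr11:120610087-120617936, minus strand) was lower in fasted livers, while Pcyt1a (chr16:32430921-32475070, plus strand) passed the test in no comparison. At 14 h the fasted libraries held 271, 304 and 319 CPM of Pcyt2, against 529, 422 and 448 CPM in AL and 468, 421 and 646 CPM in CR livers. The fasted libraries did not overlap either of the others. Pcyt2 fell by 0.64 ± 0.19 against AL livers (edgeR adjusted p = 0.0136) and was higher in CR than in fasted livers by 0.78 ± 0.19 (edgeR adjusted p = 0.00512). The first call was lost without AL_14h replicate 1 (-0.53 ± 0.21, edgeR adjusted p = 0.0791) or F_14h replicate 1 (-0.58 ± 0.22, edgeR adjusted p = 0.0635). The second was lost without CR_14h replicate 3 (0.58 ± 0.20, edgeR adjusted p = 0.0551), a library that lay nearest to another diet.

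At 22 h Pcyt2 was 342, 285 and 307 CPM in fasted and 529, 355 and 459 CPM in AL livers, without overlap. The change was -0.52 ± 0.19 (edgeR adjusted p = 0.0672), and -0.67 ± 0.20 without AL_22h replicate 2 (edgeR adjusted p = 0.0349). After a missed meal Pcyt2 was 327, 301 and 272 CPM, below the 431, 379 and 499.5 CPM of the fed libraries. This difference was -0.54 ± 0.19 (edgeR adjusted p = 0.0566). With the replicate number as a block, an effect of each number shared by all libraries, it was -0.53 ± 0.18 and passed the threshold (edgeR adjusted p = 0.0471). It also passed with DESeq2 in place of edgeR (-0.54, DESeq2 adjusted p = 0.0222). Without the libraries nearest to another diet, which lie outside this comparison, it was -0.54 ± 0.18 and passed (edgeR adjusted p = 0.0437). Pcyt1a ranged from 41.1 to 152 CPM over the libraries and its group means from 61.6 CPM in AL_14h to 107 CPM in CR_6h. In fasted against AL livers it changed by -0.045 ± 0.274 at 6 h (edgeR adjusted p = 0.962), where the libraries overlapped. The change was 0.55 ± 0.25 at 14 h (edgeR adjusted p = 0.1) and 0.40 ± 0.25 at 22 h (edgeR adjusted p = 0.306), without overlap.

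Chpt1 and Cept1 encode the phosphotransferases of the last step, cholinephosphotransferase for phosphatidylcholine and an enzyme that makes both phosphatidylcholine and phosphatidylethanolamine. Both rose after a missed meal. The CR_missed libraries held 377, 276 and 329 CPM of Chpt1 and the CR_fed libraries 169, 178 and 153 CPM. For Cept1 the values were 89.5, 96.1 and 95.5 CPM after a missed meal and 63.4, 57.3 and 60.5 CPM in fed livers. The groups did not overlap in either gene, and for both CR_missed had the highest mean of the 13 groups. Chpt1 changed by 0.98 ± 0.21 (1.97-fold, edgeR adjusted p = 0.00272) and Cept1 by 0.63 ± 0.15 (1.55-fold, edgeR adjusted p = 0.00692). Both calls were kept in the 6 fits that left out 1 library, with changes of 0.86 to 1.08 for Chpt1 and 0.60 to 0.67 for Cept1.

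In fasted livers neither gene passed the test against AL livers at 6, 14 or 22 h. At 22 h Chpt1 was 259, 159 and 287 CPM in fasted and 147, 165 and 179.6 CPM in AL livers (0.52 ± 0.21, edgeR adjusted p = 0.101). It reached 0.74 ± 0.21 (edgeR adjusted p = 0.0329) without F_22h replicate 2. Cept1 was 60.02, 43.3 and 49.4 CPM in fasted and 47.8, 69.3 and 54.3 CPM in AL livers, overlapping each other. Between CR and fasted livers at 22 h, Cept1 was higher in CR by 0.36 ± 0.14 (edgeR adjusted p = 0.113). Without the 6 libraries that went against their labels, that difference was 0.43. The fasting effect at 22 h minus the missed-meal effect was -0.80 ± 0.22 for Cept1 (edgeR adjusted p = 0.0659) and -0.45 ± 0.30 for Chpt1 (edgeR adjusted p = 0.476). With the replicate number as a block over all libraries, the difference for Cept1 was -0.80 ± 0.21 and passed the threshold (edgeR adjusted p = 0.0458). That fit does not pair the missed and fed libraries alone. The diets of the controls and the sampling times differ between those effects. Chpt1 (chr10:88452745-88504073, minus strand) shares 660 exon bases with Sycp3 on the opposite strand, which had a median of 0.0508 CPM. Cept1 (chr3:106502260-106547802, minus strand) shares 771 with Dennd2d (8.69 CPM) and 5 with Dram2 (62.8 CPM), and the libraries do not mark strand.

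The promoters of these enzymes are shown because both genes were called higher after a missed meal. They are 250 bases before a RefSeq start on GRCm38.p6, written 5′ to 3′ on the gene's strand: chr10:88503971-88504220 for Chpt1 and chr3:106547803-106548052 for Cept1, both minus. Capitals mark GC boxes (GGGCGG or, on the other strand, CCGCCC) and CCAAT boxes, 5 and 1 in Chpt1, and 1 and 0 in this window of Cept1. Cept1 had 3 windows, and the one shown ends where its annotated gene begins. The other two held 2 and 0 GC boxes and no CCAAT box.
Chpt1: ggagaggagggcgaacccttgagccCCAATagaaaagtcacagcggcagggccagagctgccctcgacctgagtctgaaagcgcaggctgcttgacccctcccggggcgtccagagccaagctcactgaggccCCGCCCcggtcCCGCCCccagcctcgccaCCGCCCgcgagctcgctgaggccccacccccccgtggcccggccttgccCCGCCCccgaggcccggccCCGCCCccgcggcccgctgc
Cept1: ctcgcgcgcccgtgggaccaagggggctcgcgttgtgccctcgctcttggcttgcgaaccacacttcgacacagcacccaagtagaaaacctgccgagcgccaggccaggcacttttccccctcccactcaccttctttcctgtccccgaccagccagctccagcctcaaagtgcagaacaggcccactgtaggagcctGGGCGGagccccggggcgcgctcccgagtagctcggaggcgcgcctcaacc
A total of 15 windows were given for 8 members. A GC box was found in 9 of these 15 and in 32.7% of all 32817 windows, and a CCAAT box in 4 and in 33.8%. Some windows of the same gene overlap, so the same GC boxes of Pcyt1a and Cept1 were counted more than once. The letters TGACG, the core of a cAMP response element, were in 2 of the 15 and in 17.7% of all windows. No member window held the E-box CACGTG (6.0% of all windows), the whole cAMP response element TGACGTCA (1.5%) or the ROR element TAGGTCA (2.2%). The same was true of the sterol response element and of the direct repeat bound by nuclear receptors, found in 24 and 11 of all windows. Both strands were searched, the letters TGACG also lie within TGACGTCA, and a match is no evidence of binding. Promoters of Gpcpd1 and Pcyt2 are not shown.

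Pemt encodes phosphatidylethanolamine N-methyltransferase, which turns phosphatidylethanolamine into phosphatidylcholine and is most active in liver (chr11:59970614-60046489, minus strand). It fell in fasted livers at 14 and 22 h, and no change was called after a missed meal. At 14 h the fasted libraries held 163, 164 and 141 CPM, against 397, 304 and 468 CPM in AL and 342, 432 and 389 CPM in CR livers. At 22 h they held 208, 195 and 218 CPM, against 330.3, 349.9 and 348 CPM in AL and 391, 483, 352 and 365 CPM in CR livers. The 9 fasted libraries were below the other 29 libraries, in which the lowest value was 256 CPM. At 6 h the fasted libraries held 235, 229 and 233 CPM and the AL libraries 343 and 294 CPM (-0.46 ± 0.19, edgeR adjusted p = 0.23).

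Pemt changed by -1.32 ± 0.17 in fasted against AL livers at 14 h (2.5-fold lower, edgeR adjusted p = 8.98e-06) and by -0.73 ± 0.17 at 22 h (edgeR adjusted p = 0.00581). Both calls were kept in all 6 fits that left out 1 library. The change was not shown to differ over the 3 times (edgeR interaction, adjusted p = 0.325). Against fasted livers, CR livers held more Pemt by 1.31 ± 0.17 at 14 h (edgeR adjusted p = 5.92e-06) and by 0.94 ± 0.16 at 22 h (edgeR adjusted p = 0.000341). Without the 6 libraries that went against their labels these 4 changes were -1.15 ± 0.18, -0.70 ± 0.19, 1.31 ± 0.18 and 1.01 ± 0.17, all past the threshold. After a missed meal Pemt was 377, 389 and 428 CPM and in fed CR livers 471, 333 and 464 CPM, which overlapped (-0.09 ± 0.17, edgeR adjusted p = 0.8). The fasting effect at 22 h minus the missed-meal effect was -0.64 ± 0.24 (edgeR adjusted p = 0.185).

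**Figure D3:**
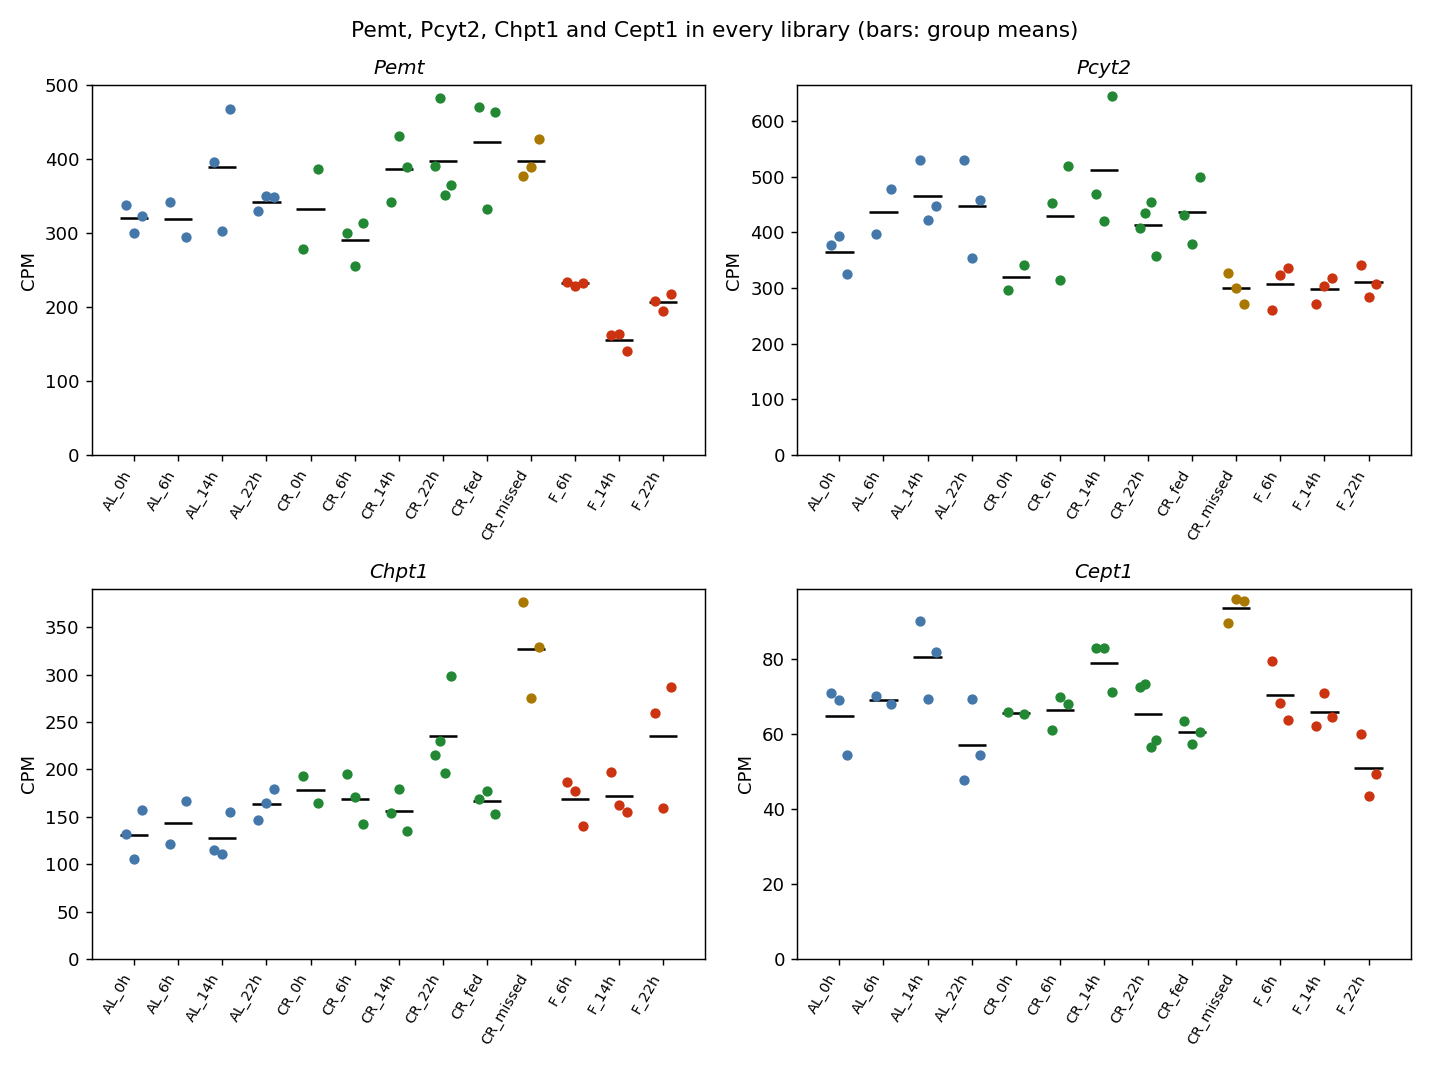
Pemt, Pcyt2, Chpt1 and Cept1 in CPM on linear axes from 0, with 1 point per library, bars at the means of the 13 groups and colours for AL (blue), CR (green), missed meal (brown) and fasted (red). The fasted libraries of Pemt lie between 141 and 235 CPM, below all others, and the CR_missed libraries of Chpt1 and Cept1 lie above the CR_fed libraries.

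Fold changes moved with transcript length in most comparisons, and Pemt is a short transcript. Its effective length was at percentile 7.1 of the genes, that of Pcyt2 at 19.4, that of Pcyt1a at 84.7 and that of Chdh at 90.5. Across the 13786 tested genes, the fold change of fasted against AL livers correlated with length with a Spearman's rho of 0.202 at 6 h, 0.453 at 14 h and 0.411 at 22 h. For CR against fasted livers rho was -0.036, -0.367 and -0.269 at these times. For CR against AL livers, with no fasted library, it was 0.01 at 0 h and 0.238, 0.231 and 0.208 at 6, 14 and 22 h. With the trend removed from each library, Pemt changed by -0.64 ± 0.16 at 14 h (edgeR adjusted p = 0.0073) and by -0.27 ± 0.16 at 22 h, which missed the threshold (edgeR adjusted p = 0.33). The fall of Pcyt2 at 14 h was then -0.31 ± 0.16 (edgeR adjusted p = 0.194). Against CR livers the calls of both genes remained, with 0.86 ± 0.16 for Pemt at 14 h, 0.66 ± 0.15 at 22 h and 0.52 ± 0.16 for Pcyt2 at 14 h. The changes of Gpcpd1, at percentile 70.6, were 3.33 ± 0.66, 1.64 ± 0.52 and 2.07 ± 0.53 in fasted against AL livers, all past the threshold. After a missed meal rho was 0.087, and the changes of Gpcpd1, Chpt1 and Cept1 were 2.47 ± 0.54, 1.03 ± 0.22 and 0.70 ± 0.15 with the trend removed. That of Pcyt2 was then -0.48 ± 0.16 and passed the threshold (edgeR adjusted p = 0.0346).

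**Figure D4:**
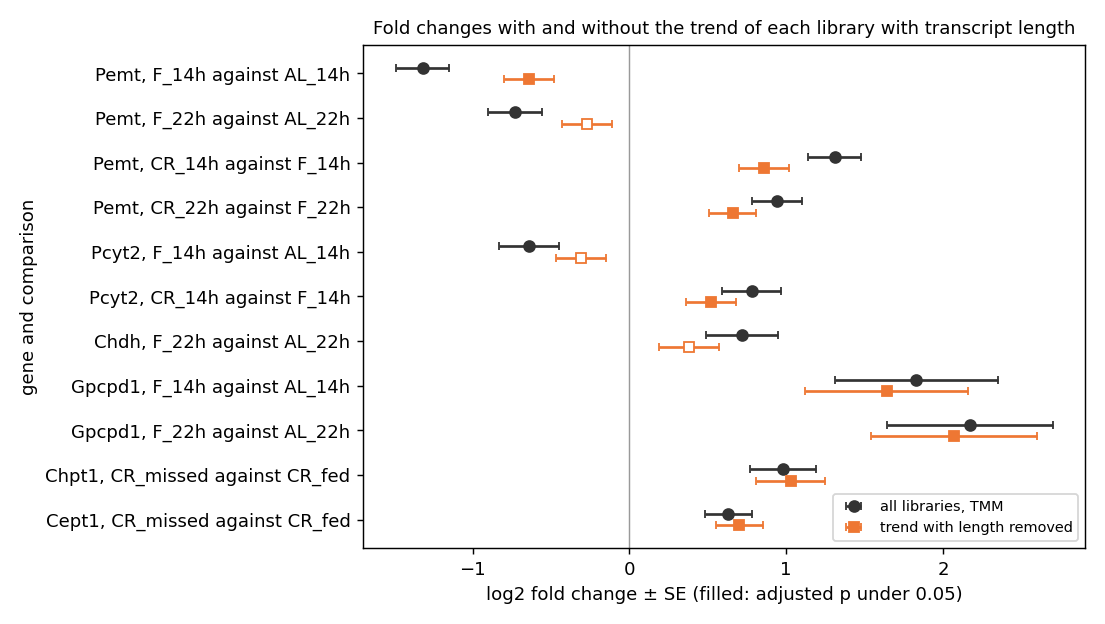
Log2 fold changes with their SE for a selection of the called pairs of member and comparison. Values are shown with all libraries and TMM scaling (black) and with the trend of each library with transcript length removed (orange). Filled symbols mark an adjusted p under 0.05. The Pemt values in fasted against AL livers move from -1.32 to -0.64 at 14 h and from -0.73 to -0.27 at 22 h, and those of Chpt1 and Cept1 after a missed meal stay near their first values.

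Lpcat3 and Chdh act beside these pathways. Lpcat3 encodes the acyltransferase that puts polyunsaturated chains into lysophosphatidylcholine (chr6:124663027-124704418, plus strand). It passed the test in no comparison. Its libraries ranged from 50.5 to 141 CPM and its group means from 64.0 CPM in AL_22h to 135 CPM in F_6h. Chdh encodes the mitochondrial choline dehydrogenase, which starts the oxidation of choline to betaine (chr14:30009023-30040527, plus strand). At 22 h it was 259.5, 211 and 155 CPM in fasted and 119, 139 and 122 CPM in AL livers, without overlap. The change was 0.72 ± 0.23 (edgeR adjusted p = 0.0368). It was 0.38 ± 0.19 with the length trend removed (edgeR adjusted p = 0.23), and the call was kept in 1 of 6 fits that left out 1 library (0.53 to 0.90, lost in all but the fit without F_22h replicate 3). Pcyt1a, Lpcat3 and Chdh overlap genes on the opposite strand by 334 to 589 exon bases, namely Slc51a, Emg1 and Cacna1d, with medians of 0, 38.1 and 3.27 CPM.

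Counted together, 1 of 10 members was called in fasted against AL livers at 6 h (higher), beside 2.34% of all tested genes, 1.2% higher and 1.13% lower. At 14 h 3 members were called, 1 higher and 2 lower, beside 24.5% of all genes (11.8% and 12.7%), a share near the background. At 22 h 4 were called, 2 higher and 2 lower, beside 11.5% (6.06% and 5.4%). The fasted and AL libraries did not overlap in 6, 4 and 6 of the 10 members at these times, beside 37%, 38.3% and 34.2% of all genes. The members' median change was 0.12, 0.17 and 0.29 at the 3 times, and that of all tested genes -0.02, -0.04 and -0.03. For CR against fasted livers 1 member was called at 6 h (lower), beside 6.8% of genes (3.39% higher and 3.41% lower). There were 3 at 14 h, 2 higher and 1 lower, beside 17.1% (9.1% and 7.97%), and 1 at 22 h (higher), beside 9.44% (5.13% and 4.32%). After a missed meal 3 members were called, all higher, beside 12.5% of all genes in either direction (6.34% higher and 6.13% lower). The members' median was 0.16 and that of all genes -0.01, and 4 members did not overlap between these groups, beside 34.5% of all genes. Within CR 3 members differed over time, beside 20.6% of genes, and within fasted livers 1, beside 2.86%.

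CR livers differed from AL livers in no member by edgeR. At 0, 6, 14 and 22 h the share of all tested genes called was 0.479%, 0%, 0.0218% and 4.88%. At an unadjusted p under 0.05 there were 0 members at 0, 6 and 14 h and 2 at 22 h, Chpt1 and Lpcat3. DESeq2 called 0 at each time, and limma 1 at 22 h, Chpt1. The CR_22h libraries held 215, 230.3, 197 and 299 CPM of Chpt1, above the 147 to 179.6 CPM of AL_22h (0.52 ± 0.20, edgeR adjusted p = 0.117). Without the libraries nearest to another diet the change was 0.60 ± 0.20 and passed (edgeR adjusted p = 0.0429). Time within AL gave 0 called members beside 0.276% of genes, 4 at an unadjusted p under 0.05 (Chka, Cept1, Etnk2 and Chdh) and 0 by DESeq2 or limma.

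No member showed a fasting effect or a CR effect that differed over time, beside 0.0653% and 0.442% of genes. At an unadjusted p under 0.05 there was 1 for the first, Pemt, and 0 for the second, and DESeq2 and limma called 0 in both. The test of the 22 h fasting effect against that of the missed meal called 0 members, beside 0.885% of genes. There, 3 had an unadjusted p under 0.05 (Pemt, Chka and Cept1), DESeq2 called 1, Cept1, as did edgeR with the replicate block, and limma 0.

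**Figure D5:**
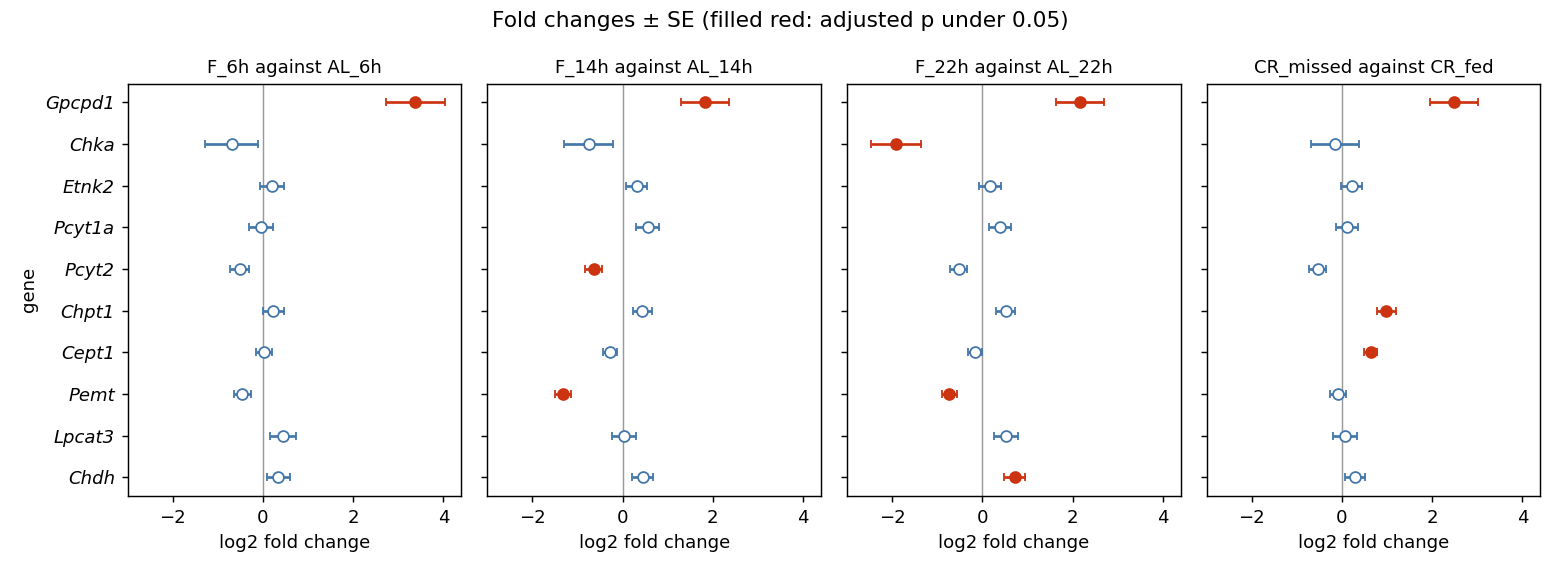
Log2 fold changes with their SE for the 10 members in fasted against AL livers at 6, 14 and 22 h and in CR livers after a missed meal against fed CR livers, with filled red symbols where the adjusted p was under 0.05. Gpcpd1 was called higher in all 4 comparisons, Pemt was called lower in fasted livers at 14 and 22 h, and Chpt1 and Cept1 were called higher after the missed meal.

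Markers of other cell types moved in some of these comparisons. After a missed meal 4 of 5 red cell markers were called higher, with a sum of 4670 to 14400 CPM against 947 to 2340 CPM in fed livers. Of 8 sinusoidal endothelial markers 3 were called higher (237 to 266 against 148 to 172 CPM), and of 8 stellate markers 1 was higher and 1 lower (453 to 506 against 362 to 408 CPM). In fasted against AL livers at 14 h, 6 of 8 sinusoidal endothelial markers were called higher (248 to 307 against 75.6 to 177 CPM), and of 7 hepatocyte markers 2 were higher and 2 lower (92100 to 109000 against 133000 to 141000 CPM). There, 1 of 8 Kupffer cell and 1 of 8 stellate markers were also higher. At 22 h 1 hepatocyte marker was higher and 2 were lower (69400 to 120000 against 79000 to 118000 CPM), with 1 endothelial and 1 stellate marker higher. In CR against fasted livers at 14 h, 2 endothelial markers were lower (186 to 255 against 248 to 307 CPM), and 1 hepatocyte and 1 of 6 cholangiocyte markers were higher. At 22 h 1 hepatocyte marker was higher and 1 lower, and 1 cholangiocyte marker was higher. The part of these cells in the members' changes was not tested.

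Other genes of the same pathways were counted from lists. Of 6 further genes of the CDP-choline and CDP-ethanolamine pathways, 2 were called higher after a missed meal, beside 12.5% of all genes (6.34% higher). They were Phospho1, a phosphatase of phosphocholine and phosphoethanolamine (3.32 ± 0.82), and Chkb, the second choline kinase (1.18 ± 0.30, and 1.05 ± 0.34 with an edgeR adjusted p of 0.0513 without CR_fed replicate 2). In fasted against AL livers 2 of the 6 were called higher at 14 h, beside 24.5% of all genes (11.8% higher), namely Phospho1 (2.78 ± 0.82) and Etnk1, an ethanolamine kinase (0.78 ± 0.22). At 6 and 22 h edgeR called 0 of the 6, with 3 and 1 at an unadjusted p under 0.05, DESeq2 called 0 and 1, and limma 0 at both times. Without AL_14h replicate 3 the changes at 14 h were 2.58 ± 0.96 (edgeR adjusted p = 0.0692) and 0.67 ± 0.25 (edgeR adjusted p = 0.0753). The call of Etnk1 was also lost with the length trend removed (0.32 ± 0.19, edgeR adjusted p = 0.253).

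Of 8 genes of phosphatidylcholine transfer, export and sphingomyelin, 1 was called higher at 6 h, 3 higher and 1 lower at 14 h and 4 higher at 22 h in fasted against AL livers, beside 2.34%, 24.5% and 11.5% of all genes in either direction. Abcb4, which exports phosphatidylcholine into bile, rose by 1.62 ± 0.39 at 6 h, 1.63 ± 0.34 at 14 h and 1.57 ± 0.34 at 22 h. It also rose after a missed meal, by 1.23 ± 0.33. Its calls at 14 and 22 h held in all fits that left out 1 library, and after a missed meal in 5 of 6 (0.94 ± 0.35, edgeR adjusted p = 0.0946, without CR_fed replicate 3). At 6 h it was lost without either AL_6h library or F_6h replicate 2 (1.49 to 1.79, edgeR adjusted p of 0.0763 to 0.201). Mfsd2a, a transporter of lysophosphatidylcholine, rose by 2.92 ± 0.62 at 14 h, and Pctp, a phosphatidylcholine transfer protein, by 0.93 ± 0.24 at 14 h and 0.94 ± 0.24 at 22 h. The Pctp calls were lost without F_14h replicate 1 (0.68 ± 0.25) and F_22h replicate 1 (0.71 ± 0.25). Stard10, a phospholipid transfer protein, fell by 0.80 at 14 h, and by 0.37 on the log2 scale (edgeR adjusted p = 0.107) with the length trend removed. Sgms1, a sphingomyelin synthase, rose after a missed meal by 1.07 ± 0.27. There, 2 of the 8 genes were called, beside 12.5% of all genes in either direction.

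Of 11 tested genes of choline uptake, oxidation and methyl transfer, 1 was called higher and 1 lower at 14 h and 1 higher at 22 h in fasted against AL livers, beside 24.5% and 11.5% of all genes. At 6 h edgeR, DESeq2 and limma called 0, and 2 had an unadjusted p under 0.05. Mat1a, which makes the methyl donor S-adenosylmethionine, rose by 1.69 ± 0.32 at 14 h and 1.44 ± 0.32 at 22 h, calls kept in every fit run. Bhmt, which uses betaine to remethylate homocysteine, was lower in CR than in fasted livers by -1.91 ± 0.53 at 14 h (-1.73 ± 0.61 and edgeR adjusted p = 0.0602 without CR_14h replicate 3) and -2.73 ± 0.49 at 22 h. Slc44a1, a choline transporter, was higher in CR than in fasted livers at 14 h (0.85 ± 0.21). After a missed meal edgeR, DESeq2 and limma called 0 genes of the list, beside 12.5% of all genes by edgeR, and 4 had an unadjusted p under 0.05.

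The genes most like the 3 widest-ranging members were looked for among 8837 tested genes whose mean was 5 CPM or more, by Pearson's r over the 13 group means of log2 CPM. For Gpcpd1 they were Rapgef4 (0.956), Clmn (0.954) and Cpt1a (0.945). For Chka they were Abtb2 (0.938), Hdac5 (0.917) and Mreg (0.916), and for Pemt Tstd1 (0.981), Apoa1bp (0.977) and Fkbp8 (0.972). Among the members themselves, the pair most alike was Pcyt1a and Chdh (0.727), followed by Pemt and Pcyt2 (0.621). Of all pairs of members, Chka and Etnk2 ran most opposite (-0.879), followed by Pcyt2 and Chdh (-0.698), Gpcpd1 and Pcyt2 (-0.672), Gpcpd1 and Chka (-0.659) and Gpcpd1 and Pemt (-0.607). The points of these correlations share libraries, depth and the length trend.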

How the data were processed

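Per the labels' protocols, RNA was made into non-directional, polyadenylated libraries and sequenced as paired reads. The authors used Bowtie (up to 2 mismatches) against GRCm38 protein-coding genes and estimated the deposited expected counts with RSEM 1.2.3. They rescaled TPM with EBSeq, per the labels. This deposited signal sums to between 817166 and 1319582 per library and served to compare genes and for limma.

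Expected counts were rounded, and 13786 genes were kept by filterByExpr. All 38 libraries entered 1 edgeR 4.0.16 model (R 4.3.3, 13 groups, TMM scaling, quasi-likelihood F test), with Benjamini-Hochberg adjustment over all tested genes and a threshold of 0.05. The SE is the absolute fold change over the square root of F. The members, gene lists and tests were chosen with earlier results of these data known. All members are described. From other lists, up to 4 called genes with the largest changes per comparison could be named. The 14 h change of Pnpla8 is given besides these and was not compared under the alternatives. Alternatives were DESeq2 1.42.0, limma 3.58.1 with pseudocounts of 1 and 0.1, a minimum mean of 1, no filter, a replicate block, removal of the length trend (lowess span 0.3), only the compared libraries, and leaving out libraries. Leaving out doubtful libraries, and the difference between the fasting and missed-meal effects, were added after seeing the data. A group left with 1 library was assumed to vary like the others. Of the 11 comparisons, only CR_missed and CR_fed had a correlation of deviations over 0.1 in every same-numbered pair (r of 0.144 to 0.2). The replicate block fitted an effect of each replicate number, shared by all 38 libraries. It therefore did not pair those groups alone. No 2 libraries were identical. Marker genes were summed for 7 cell types. The scripts were tested on simulated data.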

Additional observations from a re-analysis of the deposited data

Results flagged for a closer look

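Among the 10 members in the CR_22h libraries, which formed the 1 group of 4, Etnk2 had a library far from the others. CR_22h replicate 2 held 420.2 CPM, against 359, 350 and 347 CPM, and its gap to the nearest library was 0.835 of the range of the group. Chance gives such a gap in about 1 in 20 groups, and 10 were looked at. Without that library, the difference of Etnk2 over time within CR had an edgeR adjusted p of 0.0697.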

How the results depend on the processing

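No called change of a member, or of a list gene named as among the largest, reversed under any alternative. Of 187 counts of called members under alternatives that do not leave out a single library, 163 were within 1.5 times the reported count. Fasted against AL livers at 22 h gave 4 members and 2 with the length trend removed or with only the compared libraries. CR against AL livers at 22 h gave 0, and 1 with limma at either pseudocount or without the libraries nearest to another diet. CR against fasted livers at 22 h gave 1. It gave 2 with DESeq2, limma at either pseudocount, the replicate block or without the libraries of a deviant clock, 0 with only the compared libraries and 4 without both sets. Time within AL gave 0, and 2 without the libraries of a deviant clock and 1 without both sets. Time within fasted livers gave 1, 3 with DESeq2, and 2 with limma at either pseudocount, the replicate block, the length trend removed, without the libraries of a deviant clock or without both sets. The difference between the fasting and the missed-meal effect gave 0, and 1 with DESeq2, the replicate block or without the libraries nearest to another diet. Some of these counts moved although the comparison held none of the libraries left out. This was so for time within fasted livers, without the libraries of a deviant clock or without both sets. It was also so for the difference of effects without the libraries nearest to another diet. The same holds for CR against fasted livers at 22 h without the libraries of a deviant clock. The cause of these shifts was not tested.

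Leaving out each library in turn gave 0 to 1 called members for fasted against AL livers at 6 h, 1 to 3 at 14 h and 1 to 4 at 22 h. It gave 1 to 2 for CR against fasted livers at 6 h and at 22 h, 2 to 3 at 14 h, 1 to 4 for time within CR and 0 to 2 for time within fasted livers. It gave 3 in each fit for the missed meal. Of 51 named pairs of list gene and comparison, 23 kept their call in each such fit.

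With the replicate number as a block, Pcyt2 gained a call after a missed meal. DESeq2, removal of the length trend and leaving out the libraries nearest to another diet also gave it this call. The block also called Cept1 in the difference of effects (-0.80 ± 0.21, edgeR adjusted p = 0.0458). The block fits an effect of each number over all libraries, so neither call comes from a paired test of missed and fed libraries. Outside the missed and fed groups, same-numbered libraries share only a number (r of -0.196 to 0.171, and 0.03 to 0.171 for CR and fasted livers at 22 h). There the replicate block added Gpcpd1 in CR against fasted livers at 22 h (-1.80 ± 0.52, edgeR adjusted p = 0.0216) and Etnk2 over time within fasted livers (edgeR adjusted p = 0.0487). Among the members it changed no other call. In groups of 2 to 4 libraries, a change that missed the threshold is not shown to be absent.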

Other observations

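Phospholipid remodelling and breakdown genes, which swap or remove acyl chains and head groups, were called in both directions in fasted against AL livers. Of 19 tested, 6 were higher and 2 lower at 14 h (24.5% of all genes called), 3 higher and 1 lower at 22 h (11.5%), and 0 at 6 h by edgeR, where DESeq2 called 1, limma 0, and 3 had an unadjusted p under 0.05. Lpgat1, an acyltransferase, rose by 1.10 ± 0.24 at 14 h and 1.02 ± 0.24 at 22 h, and it was lower in CR than in fasted livers by -1.40 ± 0.24 at 14 h and -1.20 ± 0.22 at 22 h. With the length trend removed its change at 22 h against AL livers was 0.61 ± 0.22 (edgeR adjusted p = 0.0798). The phospholipase gene Pnpla8 rose in fasted livers by 0.80 ± 0.21 at 14 h and by 0.82 ± 0.21 at 22 h. Its call at 22 h was lost without AL_22h replicate 1 (0.69 ± 0.23) or without F_22h replicate 1 (0.72 ± 0.23). After a missed meal 2 of the 19 genes were called, beside 12.5% of all genes in either direction. Of these, Pnpla8 rose by 1.16 ± 0.21. The lysosomal phospholipase gene Pla2g15 fell by 1.26 after a missed meal (SE 0.34), a call lost without CR_missed replicate 2 or 3 (-1.19 ± 0.39 in both fits). Of 9 tested genes of phosphatidylserine, phosphatidylinositol and cardiolipin synthesis, 2 were lower in fasted livers at 14 h, the cardiolipin genes Taz (-0.70 ± 0.25) and Crls1 (-0.64 ± 0.23). Each call was kept in 2 of the 6 fits that left out 1 library (-0.91 to -0.45 for Taz and -0.91 to -0.47 for Crls1). Both were lost without AL_14h replicate 1 or 3 or F_14h replicate 3, Taz also without F_14h replicate 1 and Crls1 without F_14h replicate 2, and limma called neither gene. With the length trend removed they were -0.40 ± 0.21 and -0.40 ± 0.22, and neither passed.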
